A study of Mus musculus with 8 samples.

Results

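The 8 genes described here, Dusp1, Dusp2, Dusp4, Dusp5, Dusp6, Dusp7, Dusp10 and Dusp16, encode MAP kinase phosphatases. How open the chromatin around them was in regulatory T (Treg) cells of the mouse spleen was read by ATAC-seq, which tags DNA that a transposase can reach. A peak of the deposited count table belonged to one of these genes when that gene was the nearest RefSeq protein-coding gene and lay at most 50 kb away, which gave 73 of 57199 peaks. The gene list was put together with results of the same Flcn KO and WT comparison known, so counts of changed peaks among these genes are a description. Flcn KO Treg cells came from Foxp3CreFlcnfl/fl mixed bone-marrow (BM) chimeras, in which a Foxp3-driven Cre recombinase acts on a floxed Flcn gene, and WT Treg cells came from WT mixed BM chimeras. All cells were sorted as CD45.2+ CD45.1- CD4+ Foxp3-YFP+, with 4 libraries in each group that the labels call biological replicates. Cre driven by Foxp3 acts in cells that express or have expressed Foxp3. The labels used here give neither the age of the mice, nor the genotype of the other cells in the chimeras, nor whether the WT donors carried Cre.

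MAP kinases are switched on when a kinase adds phosphate to a threonine and a tyrosine in their activation loop, and MAP kinase phosphatases switch them off by removing both phosphates. DUSP1, DUSP2, DUSP4 and DUSP5 are nuclear enzymes whose genes are induced early after stimulation, DUSP6 and DUSP7 are cytoplasmic enzymes that prefer the kinase ERK, and DUSP10 and DUSP16 act mainly on the stress kinases JNK and p38. In T cells the antigen receptor activates ERK through Ras, and several of these phosphatase genes are themselves induced by ERK and so close a negative feedback loop. Flcn encodes folliculin, a lysosomal regulator of nutrient signalling, and cells that lack it hold more of the E-box-binding factors TFEB and TFE3 in their nuclei.

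RefSeq promoter windows were available for 7 of the 8 genes, all but Dusp4, and those of 4 genes are shown because they hold the sequence features that set these promoters apart from each other and because Dusp10 had the most accessible start of the family. Each run is the 250 bases before the transcription start, 5′ to 3′ on the coding strand, in build GRCm38.p6 (mm10). Capitals mark the E-box CACGTG, the cyclic AMP response element TGACGTCA and its half-site TGACG, which the full element contains, and the CArG box bound by serum response factor. The Dusp1 window lies at chr17:26508473-26508722 (minus strand), that of Dusp2 at chr2:127335909-127336158 (plus strand), that of Dusp5 at chr19:53528895-53529144 (plus strand) and that of Dusp10 at chr1:184034131-184034380 (plus strand).
Dusp1: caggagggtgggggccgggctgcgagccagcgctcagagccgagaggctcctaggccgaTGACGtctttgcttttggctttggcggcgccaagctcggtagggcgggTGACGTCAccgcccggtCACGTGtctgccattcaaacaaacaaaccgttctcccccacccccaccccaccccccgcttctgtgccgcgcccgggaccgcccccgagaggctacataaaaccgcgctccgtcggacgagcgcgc
Dusp2: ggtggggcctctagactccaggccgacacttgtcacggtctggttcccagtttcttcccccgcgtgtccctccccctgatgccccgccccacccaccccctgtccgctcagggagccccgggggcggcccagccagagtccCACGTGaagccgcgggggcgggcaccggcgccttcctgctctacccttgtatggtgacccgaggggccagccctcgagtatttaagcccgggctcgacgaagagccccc
Dusp5: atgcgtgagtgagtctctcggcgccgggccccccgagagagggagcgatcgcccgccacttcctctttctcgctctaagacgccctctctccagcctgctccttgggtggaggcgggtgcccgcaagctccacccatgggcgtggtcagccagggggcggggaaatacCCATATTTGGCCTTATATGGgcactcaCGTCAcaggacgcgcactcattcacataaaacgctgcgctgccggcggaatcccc
Dusp10: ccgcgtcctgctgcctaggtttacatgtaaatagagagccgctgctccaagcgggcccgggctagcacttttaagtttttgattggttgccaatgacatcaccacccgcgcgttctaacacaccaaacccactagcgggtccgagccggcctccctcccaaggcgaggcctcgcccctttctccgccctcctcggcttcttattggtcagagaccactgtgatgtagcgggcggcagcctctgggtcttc

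An E-box stood in the windows of Dusp1, 126 to 121 bases before the start, and Dusp2, 109 to 104 bases before it, and 6.02% of all 32851 promoter windows of the table hold one. The full cyclic AMP response element occurred in Dusp1 alone of the 7 windows (background 1.55%). Half-sites occurred in Dusp1, Dusp5 and Dusp16 (background 17.8%). Dusp5 held 2 adjoining CArG boxes, 82 to 73 and 72 to 63 bases before its start (background 1.47%). The GC box GGGCGG was found in 5 of the 7 windows (background 32.7%) and the CCAAT box CCAAT in 4 (background 33.8%). The letters TGANTCA (the AP-1 site, background 6.75%) and CCGGAA (an ETS core, background 12.0%) were in none of the 7 windows. Both strands were searched. All 7 windows were richer in G and C than the median promoter window (52.4%), between 56.4% in Dusp6 and 77.2% in Dusp7, and their ratio of observed to expected CpG ran between 0.629 in Dusp2 and 0.967 in Dusp1, against a median of 0.373. The background rates are over all promoter windows and were not matched for G and C or for CpG. A sequence match describes the letters of these windows only.

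The peaks were spread unevenly over the genes (mm10). Dusp1 spans chr17:26505591-26508472 and has 6 peaks, 2 overlapping the gene and 4 outside it. Dusp2 spans chr2:127336159-127338377 and has 7 peaks, 1 overlapping the gene and 6 outside it. Dusp4 spans chr8:34807610-34819894 and has 9 peaks, 2 overlapping the gene and 7 outside it. Dusp5 spans chr19:53529145-53541809 and has 18 peaks, 6 overlapping the gene and 12 outside it. Those encode the nuclear enzymes. Of the cytoplasmic enzymes, Dusp6 spans chr10:99263231-99267489 and has 8 peaks, 1 overlapping the gene and 7 outside it. Dusp7 spans chr9:106368560-106375724 and has 4 peaks, 1 overlapping the gene and 3 outside it, the fewest of the 8. Of the stress-kinase enzymes, Dusp10 spans chr1:184034381-184075636 and has 12 peaks, 9 overlapping the gene and 3 outside it. Dusp16 spans chr6:134715468-134807063 and has 9 peaks, 8 overlapping the gene and 1 outside it. The Dusp10 and Dusp16 peaks lie mostly within these long genes and those of the other 6 mostly outside.

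The libraries held between 2723344 and 5111728 counts. Accessibility is given as CPM, the count scaled to the library's total after TMM normalization. At Flcn itself the 2 tested peaks did not pass the test (log2 fold change -0.28 and -0.57, edgeR adjusted p = 0.679 and 0.463), and the labels do not say which exons Cre removes, so that the genotype is not checked by them. Markers were read at peaks within 1000 bp of the gene, a narrower rule than for the phosphatase genes. Of them, Treg genes carried 47 peaks with summed CPM of 824 to 977 in Flcn KO and 809.5 to 882 in WT, with no peak that close to Tnfrsf18, and all 6 T cell genes had a peak (389.7 to 452 CPM in Flcn KO and 373 to 424 CPM in WT). B cell genes had 8 peaks with summed CPM of 39.6 to 50.5 in Flcn KO and 38.5 to 59.0 in WT, and those without such a peak included Cd79b and Ms4a1. Myeloid genes had 6 peaks with 41.7 to 49.5 CPM in Flcn KO and 43.3 to 69.1 CPM in WT, with none at Lyz2 or Csf1r. CD8 T cell, NK cell and erythroid genes summed to 16.03 to 35.8, 11.5 to 17.2 and 19.8 to 24.9 CPM in Flcn KO and to 18.1 to 29.0, 14.9 to 21.0 and 15.8 to 22.8 CPM in WT. Under the 50 kb rule, 3 of 68 tested peaks of Treg genes were called higher and 1 lower (5.88%, beside 2.37% of all tested peaks). Of 13 tested NK cell peaks 1 was called higher and 1 lower, and of 3 erythroid peaks 1 higher. No T cell, CD8 T cell or B cell peak was called. Of 16 tested peaks of myeloid genes 2 lay above 0, as did 50.6% of all tested peaks. None of the 16 was called by edgeR, and DESeq2 called 0 and limma-voom 0. Of these, 1 had an unadjusted edgeR p below 0.05 (12.9% of all tested peaks). The part of such other cells in the results below was not tested. In a sorted bulk population, fewer cells with an open site and a less open site in every cell cannot be told apart.

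All 8 phosphatase genes had an accessible region at or close to the annotated start, or for Dusp4 close to an end of the gene. A peak covered the annotated transcription start of Dusp1, Dusp2, Dusp5, Dusp6, Dusp10 and Dusp16, the nearest Dusp7 peak ended 545 bp before its start, and the nearest Dusp4 peak lay 114 bp from the lower-coordinate end of that gene, whose start was not located here. The only start used for Dusp16, chr6:134792628 on the minus strand, lies inside the gene's span, which ends at 134807063. Per kb of peak, WT accessibility was highest at Dusp10, with 391, 409, 403 and 385 CPM per kb in WT replicates 1 to 4. That level exceeded 99.0% of the 8739 peaks that cover an annotated start in this table, whose median was 52.7 CPM per kb. Dusp4 followed at 155 to 174 CPM per kb across the WT libraries and Dusp6 at 136 to 183 CPM per kb. These ranges overlap each other and lie apart from both Dusp10 and Dusp7. Dusp7 (119 to 134 CPM per kb), Dusp2 (103 to 122), Dusp16 (94.7 to 127) and Dusp5 (94.1 to 119) formed a run in which each overlapped the next. Dusp1 was lowest, with 52.0, 57.1, 50.9 and 54.8 CPM per kb in WT replicates 1 to 4. It lay below every WT library of the other 7 genes and at the 50.6 percentile of start peaks. The order below Dusp10 depends on dividing by width, and the Dusp1 peak (942 bp) was the widest of the 8. In CPM its WT libraries (47.9 to 53.8) overlapped those of Dusp16 (48.2 to 64.8). Dusp5 (66.7 to 84.3 CPM) then stood above Dusp7 (57.3 to 64.8 CPM). Dusp6 alone had a distal peak with more counts than its start peak: chr10:99241817-99242501, 20.7 kb outside the gene, had 97.2 ± 13.2 CPM in Flcn KO and 97.1 ± 6.84 CPM in WT (SD, n = 4 each).

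**Figure D1:**
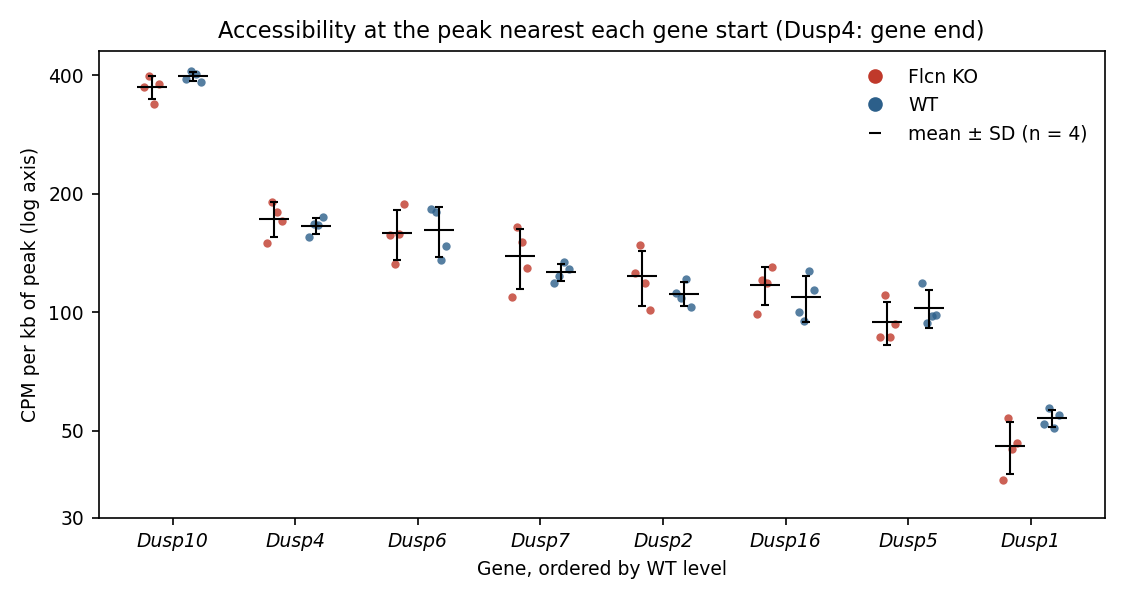
CPM per kb of peak (log axis) at the peak nearest each gene start, or for Dusp4 nearest a gene end, with genes ordered by their WT level; points are libraries and bars mean ± SD of 4 libraries, Flcn KO left of WT. Dusp10 stands highest and Dusp1 lowest in both groups, and the Flcn KO and WT points overlap at every gene.

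None of these 8 main peaks passed the test in Flcn KO, and at each the libraries of the groups overlapped. Their log2 fold changes (Flcn KO minus WT) lay between -0.24 and 0.15. Among the nuclear phosphatases, the start peak of Dusp1 (chr17:26507961-26508902) had 35.2, 50.8, 42.3 and 43.8 CPM in Flcn KO replicates 1 to 4, against 49.0, 53.8, 47.9 and 51.7 CPM in WT replicates 1 to 4. Of the Flcn KO libraries, 3 lay below all WT libraries and replicate 2 lay among them, a log2 fold change of -0.24 ± 0.13 (SE), interval -0.50 to 0.02, adjusted p = 0.461 by edgeR (an approximate 95% interval, here and below). The start peak of Dusp2 (chr2:127335823-127336346) had 65.7, 77.5, 62.2 and 53.0 CPM in Flcn KO replicates 1 to 4, against 58.5, 56.9, 63.7 and 54.1 CPM in WT replicates 1 to 4. Its log2 fold change was 0.15 ± 0.12 (SE), interval -0.08 to 0.39, adjusted p = 0.666 by edgeR. The peak beside Dusp4 (chr8:34806820-34807496) had 101, 129, 122 and 115 CPM in Flcn KO replicates 1 to 4, against 105, 113, 112 and 118 CPM in WT replicates 1 to 4. Flcn KO replicate 1 was the lowest and replicate 2 the highest of all 8 libraries there, and the change was 0.06 ± 0.10 (SE), interval -0.13 to 0.25, adjusted p = 0.875 by edgeR. The start peak of Dusp5 (chr19:53528799-53529507) had 61.2, 78.6, 61.2 and 66.3 CPM in Flcn KO replicates 1 to 4, against 84.3, 66.7, 69.4 and 69.6 CPM in WT replicates 1 to 4. WT replicate 1 was the highest library and the change was -0.12 ± 0.12 (SE), interval -0.35 to 0.10, adjusted p = 0.739 by edgeR.

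Of the cytoplasmic ERK phosphatases, the start peak of Dusp6 (chr10:99262872-99263380) had 79.8, 67.3, 80.3 and 96.0 CPM in Flcn KO replicates 1 to 4, against 93.0, 91.5, 69.1 and 75.0 CPM in WT replicates 1 to 4. The change was -0.03 ± 0.12 (SE), interval -0.26 to 0.20, adjusted p = 0.95 by edgeR. The nearest peak to the start of Dusp7 (chr9:106367605-106368087) had 52.8, 79.6, 72.6 and 62.5 CPM in Flcn KO replicates 1 to 4, against 57.3, 59.8, 64.8 and 62.0 CPM in WT replicates 1 to 4. The change there was 0.13 ± 0.12 (SE), interval -0.11 to 0.37, adjusted p = 0.728 by edgeR. Of the stress-kinase phosphatases, the start peak of Dusp10 (chr1:184034004-184034645) had 239.7, 255, 217 and 244 CPM in Flcn KO replicates 1 to 4, against 251, 263, 259 and 247 CPM in WT replicates 1 to 4. This, the strongest peak of the family, was also the most tightly bounded: -0.09 ± 0.08 (SE), interval -0.25 to 0.07, adjusted p = 0.712 by edgeR, or 0.839 to 1.05 times WT. The start peak of Dusp16 (chr6:134792500-134793008) had 50.4, 61.5, 60.4 and 66.3 CPM in Flcn KO replicates 1 to 4, against 51.1, 48.2, 64.8 and 58.1 CPM in WT replicates 1 to 4, a change of 0.10 ± 0.12 (SE), interval -0.14 to 0.34, adjusted p = 0.822 by edgeR. A p that misses the threshold does not show that the groups are alike, and over the 8 peaks these intervals run between 0.708 times WT, at Dusp1, and 1.31 times WT, at Dusp2.

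Of the 73 peaks, 63 had enough counts to be tested. In Flcn KO 1 rose, 0 fell and 62 did not pass (edgeR quasi-likelihood test, Benjamini-Hochberg adjusted p below 0.05 over all 47859 tested peaks), where 2.37% of all tested peaks were called, 1.35% higher and 1.02% lower. The peak that rose lies inside Dusp4. DESeq2 and limma-voom likewise called 0 lower. At an unadjusted p below 0.05, 2 peaks were higher and 3 lower (12.9% of all tested peaks reach this in either direction). The groups' libraries did not overlap at 2 higher and 2 lower peaks (7.59% of all tested peaks, 4.03% higher and 3.56% lower). The median log2 fold change over the 63 peaks was 0.07, beside 0.00390 over all tested peaks, and 37 of 63 lay above 0 (58.7%, beside 50.6% of all tested peaks). Peaks of 1 gene share a locus and are not independent.

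**Figure D2:**
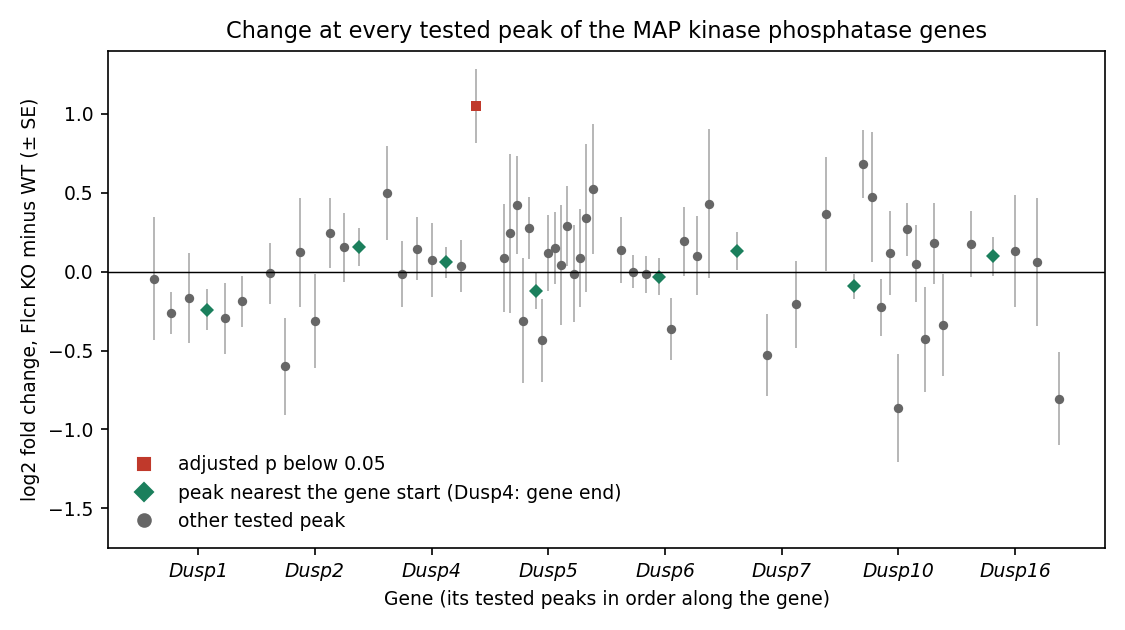
Log2 fold change (Flcn KO minus WT, bars ± SE) of the 63 tested peaks, grouped by gene and in order along each gene; the square is the 1 peak past the threshold, diamonds are the peaks nearest a gene start. The diamonds sit between -0.24 and 0.15, and the Dusp4 square at 1.05.

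DUSP4 is a nuclear phosphatase of ERK, JNK and p38 whose gene is known to be induced through ERK. The Dusp4 peak that changed, chr8:34817731-34818106, lies inside the gene, 1788 bp from its higher-coordinate end; the annotation used here holds no exons. It had 14.1, 15.5, 21.9 and 18.3 CPM in Flcn KO replicates 1 to 4, against 6.64, 8.70, 8.92 and 9.35 CPM in WT replicates 1 to 4. Every Flcn KO library was above every WT library. Raw counts were 72, 58, 88 and 48 in Flcn KO and 32, 39, 35 and 38 in WT. Means were 17.4 ± 3.44 CPM in Flcn KO and 8.40 ± 1.20 CPM in WT (SD, n = 4 each), 2.07 times WT (log2 fold change of 1.05 ± 0.23 (SE), adjusted p = 0.00709 by edgeR). The call ended without Flcn KO replicate 3, the highest library, at an adjusted p of 0.0575 with a log2 fold change of 0.91; over the other alternatives tried it held, and the adjusted p ranged over all of them between 0.00237 and 0.0575.

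The neighbouring peak inside Dusp4, chr8:34816056-34816481, ends 1249 bp before it and had 24.2, 32.1, 27.8 and 27.4 CPM in Flcn KO replicates 1 to 4, against 32.4, 23.6, 26.5 and 26.1 CPM in WT replicates 1 to 4. Those groups overlapped, and its log2 fold change was 0.03 (interval -0.29 to 0.36). The strongest Dusp4 peak, chr8:34806820-34807496, had 117 ± 11.7 CPM in Flcn KO and 112 ± 5.38 CPM in WT (SD, n = 4 each). Upstream in coordinate order, chr8:34781900-34782309 had the next largest change of the tested Dusp4 peaks, 0.50 (SE 0.30, edgeR adjusted p = 0.52), with 6.65, 7.75, 11.9 and 15.2 CPM in Flcn KO and 7.06, 9.59, 4.08 and 7.87 CPM in WT, groups that overlap. The changed peak made up 7.62 ± 0.929% of the summed accessibility of Dusp4 in Flcn KO and 4.08 ± 0.531% in WT (SD, n = 4 each). The other 8 Dusp4 peaks together summed to 210.2 ± 20.1 CPM in Flcn KO and 197 ± 5.93 CPM in WT, a ratio of 1.07.

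**Figure D3:**
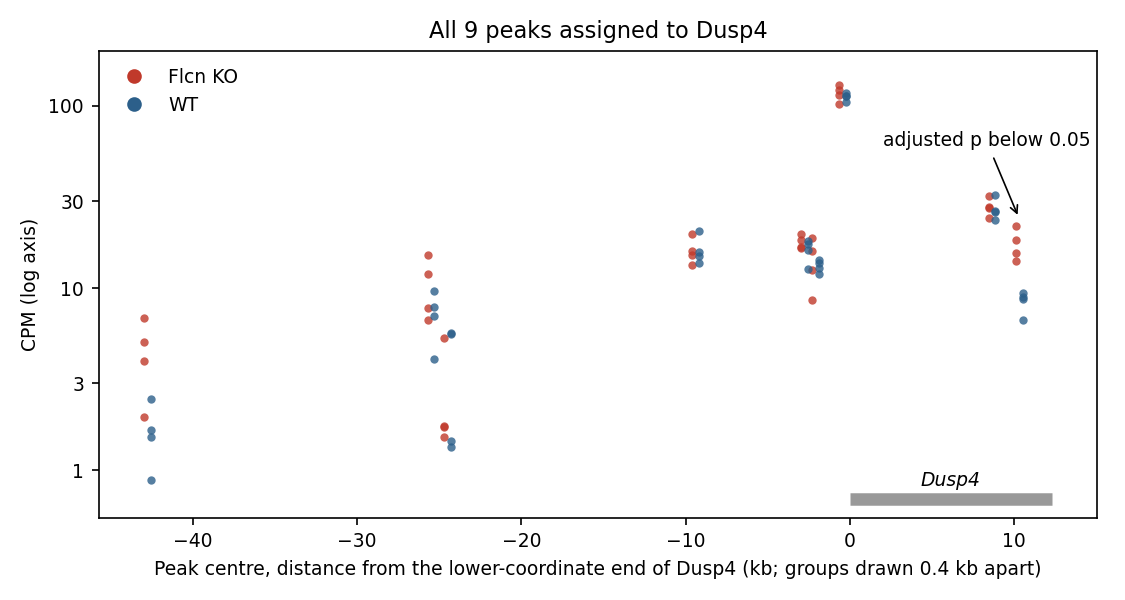
CPM (log axis) in each library at the 9 peaks assigned to Dusp4, by distance of the peak centre from the lower-coordinate end of the gene, whose span is the grey bar; red points are Flcn KO and blue points, drawn just to their right, WT. The groups separate at the marked peak and overlap at the strong peak beside the gene's lower-coordinate end and at the peak next to the marked one.

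The peaks next in line by adjusted p did not pass, and all belong to the stress-kinase phosphatases Dusp10 and Dusp16. Inside Dusp10, chr1:184042719-184043126, 8338 bp after the start, had 17.6, 18.7, 15.9 and 19.1 CPM in Flcn KO replicates 1 to 4, against 12.5, 8.25, 12.2 and 11.3 CPM in WT replicates 1 to 4. The Flcn KO libraries were all above the WT libraries (log2 fold change of 0.68 ± 0.22 (SE), adjusted p = 0.0905 by edgeR). Also inside Dusp10, chr1:184060474-184060813 had 4.11, 5.34, 2.49 and 4.19 CPM in Flcn KO replicates 1 to 4, against 5.40, 8.92, 9.69 and 5.41 CPM in WT replicates 1 to 4. Here every Flcn KO library lay below every WT library, though by a margin of 5.40 against 5.34 CPM between the nearest libraries (log2 fold change of -0.86 ± 0.34 (SE), adjusted p = 0.225 by edgeR).

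The last of the 3, chr6:134716096-134716569, lies near the 3′ end of Dusp16, 76059 bp after its annotated start, and had 15.6, 9.62, 7.46 and 3.81 CPM in Flcn KO replicates 1 to 4, against 11.6, 24.1, 12.2 and 18.7 CPM in WT replicates 1 to 4. The groups overlapped, since Flcn KO replicate 1 lay above WT replicates 1 and 3 (log2 fold change of -0.80 ± 0.30 (SE), adjusted p = 0.185 by edgeR). Without that library the peak passed the test, with a log2 fold change of -1.21 and an adjusted p of 0.00769 by edgeR. It was the only peak of these genes to do so under any alternative besides the Dusp4 peak. Calls over all peaks also rose without that library, from 1133 to 1797. With another library left out the peak did not pass. Its change was then smallest without WT replicate 2, at -0.58 (edgeR adjusted p = 0.519). The remaining extremes lay outside the genes. A Dusp2 peak 16.8 kb from the gene, chr2:127319138-127319359, had 6.45, 4.27, 5.97 and 5.33 CPM in Flcn KO replicates 1 to 4, against 12.5, 8.03, 5.61 and 7.38 CPM in WT replicates 1 to 4, with overlapping groups (log2 fold change of -0.60 ± 0.31 (SE), adjusted p = 0.413 by edgeR). A Dusp5 peak 26.0 kb from the gene, chr19:53567850-53568145, had 3.91, 3.74, 4.48 and 5.33 CPM in Flcn KO replicates 1 to 4, against 2.91, 4.02, 3.57 and 1.48 CPM in WT replicates 1 to 4, also overlapping (log2 fold change of 0.52 ± 0.41 (SE), adjusted p = 0.67 by edgeR).

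**Figure D4:**
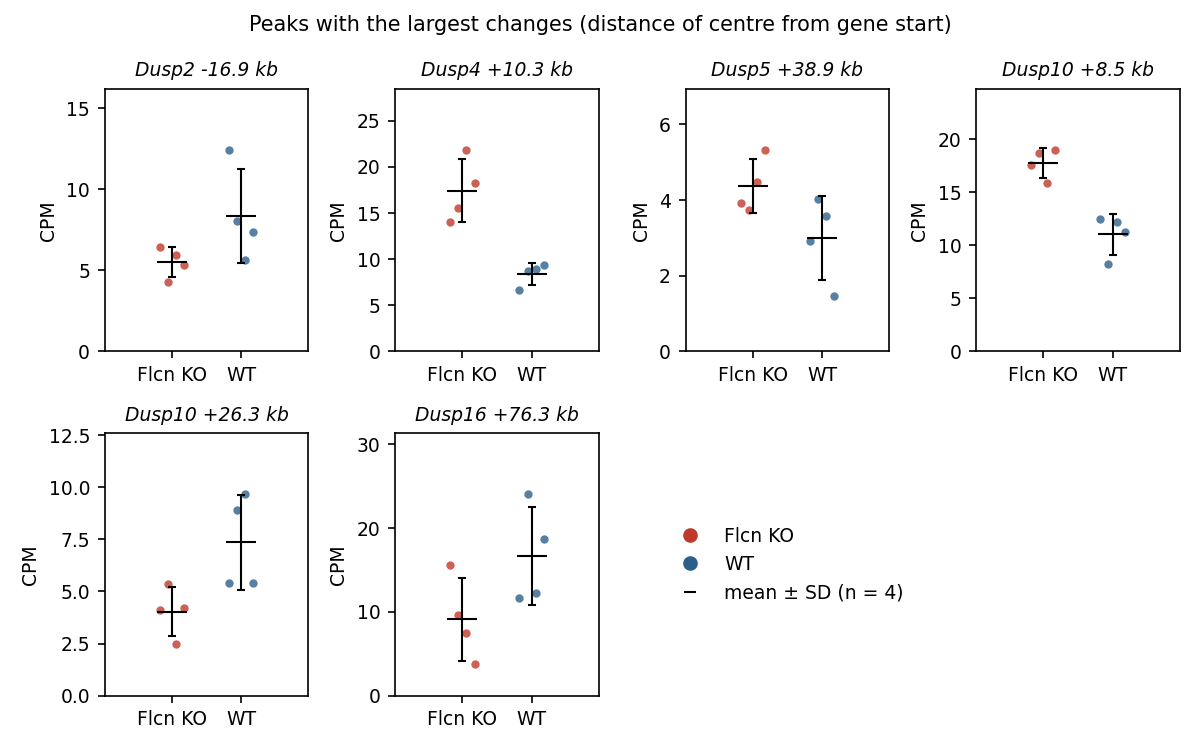
CPM in each library, with mean ± SD of 4 libraries, Flcn KO left of WT, for the 3 tested peaks that were highest and the 3 that were lowest by log2 fold change; titles give the distance of the peak centre from the gene start (for Dusp4, from its lower-coordinate end) along the gene. Only the Dusp4 panel shows a peak past the threshold; the groups separate there and in both Dusp10 panels.

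Among the nuclear, inducible phosphatases, Dusp1 was the gene whose peaks all leaned the same way: its 6 peaks had log2 fold changes between -0.30 and -0.04, and none passed the test. The lowest adjusted p among them was 0.396, at chr17:26531631-26532190, 23.2 kb from the gene, which had 37.5, 47.0, 38.8 and 40.4 CPM in Flcn KO replicates 1 to 4, against 45.7, 46.4, 53.5 and 50.7 CPM in WT replicates 1 to 4. Flcn KO replicate 2 lay inside the WT range there and the other 3 Flcn KO libraries below it. Summed over its peaks, Dusp1 had 120.4, 165, 127 and 126 CPM in Flcn KO replicates 1 to 4, against 153, 159.9, 162 and 159 CPM in WT replicates 1 to 4. Flcn KO replicate 2 was above every WT library and the other 3 were below all of them. The log2 ratio of group means was -0.23. With 1 library left out it ranged between -0.35, without Flcn KO replicate 2, and -0.18. The sums are a description and were not tested.

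Dusp2, whose product acts on ERK and p38 in the nucleus, summed to 139 ± 9.30 CPM in Flcn KO and 133 ± 14.7 CPM in WT over 7 peaks (SD, n = 4 each). Dusp5, an ERK-specific nuclear phosphatase gene, had the most peaks of the family, 18, of which 15 were tested, 11 lay above 0 and none passed, with log2 fold changes between -0.44 and 0.52. Its sum was 191 ± 10.6 CPM in Flcn KO and 186 ± 12.7 CPM in WT. Dusp4 summed to 228 ± 22.9 CPM in Flcn KO and 206 ± 6.54 CPM in WT, a ratio of 1.11, the highest of the 8 genes, with Flcn KO replicate 1 below all 4 WT libraries and the other 3 Flcn KO libraries above them.

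For the cytoplasmic ERK phosphatases, Dusp6 summed to 305 ± 22.0 CPM in Flcn KO and 307 ± 18.4 CPM in WT (ratio 0.995) and its 8 peaks had log2 fold changes between -0.36 and 0.43. The strong distal Dusp6 peak at chr10:99241817-99242501 had 89.2, 87.6, 116 and 95.6 CPM in Flcn KO replicates 1 to 4, against 101, 105, 90.8 and 92.0 CPM in WT replicates 1 to 4. Its groups overlapped, and the interval of its change was -0.21 to 0.21. Dusp7 summed to 89.7 ± 13.1 CPM in Flcn KO and 87.6 ± 6.75 CPM in WT. Inside Dusp7, chr9:106372991-106373310 had 8.60, 8.55, 6.46 and 6.86 CPM in Flcn KO replicates 1 to 4, against 9.13, 12.9, 10.2 and 12.1 CPM in WT replicates 1 to 4; the Flcn KO libraries were all lower, with 8.60 CPM in the highest of them against 9.13 CPM in the lowest WT library, and the peak did not pass (log2 fold change of -0.53 ± 0.26 (SE), adjusted p = 0.381 by edgeR).

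For the phosphatases of the stress kinases, Dusp10 summed to 388 ± 9.49 CPM in Flcn KO and 402 ± 10.9 CPM in WT (ratio 0.966), of which its start peak held 61.5 ± 3.29% in Flcn KO and 63.5 ± 1.54% in WT. Dusp16 summed to 102 ± 2.91 CPM in Flcn KO and 101 ± 7.66 CPM in WT (ratio 1.01). The start peak held 58.3 ± 6.10% of it in Flcn KO and 54.7 ± 5.43% in WT. Over the 8 genes the ratio of summed accessibility, Flcn KO over WT, ran between 0.850 at Dusp1 and 1.11 at Dusp4, and at every gene the libraries of the groups overlapped.

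**Figure D5:**
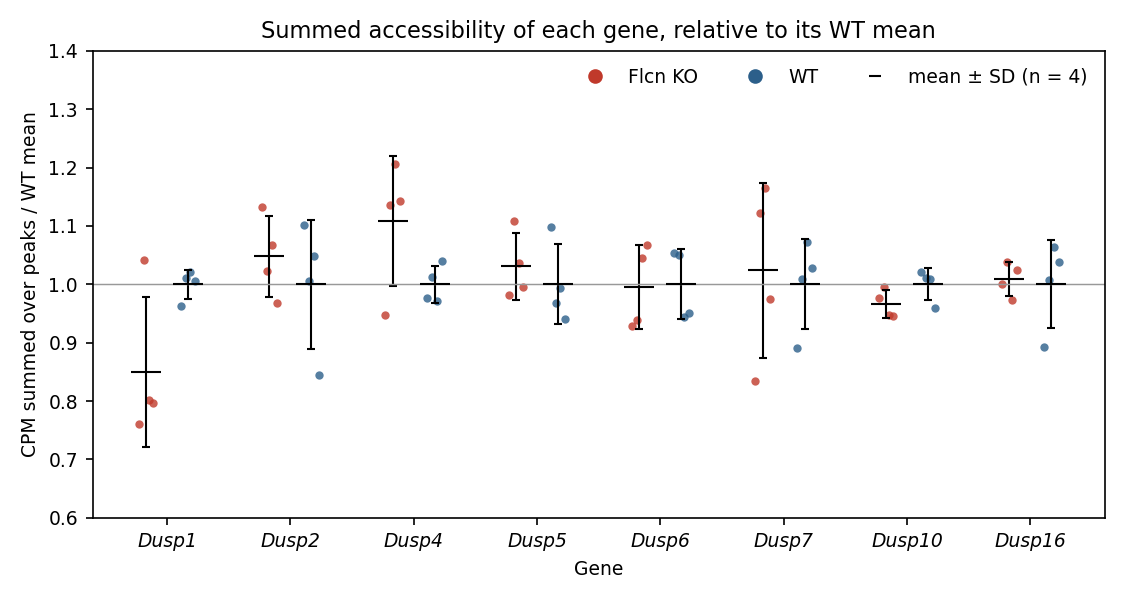
CPM summed over all peaks of each gene and divided by that gene's WT mean; points are libraries and bars mean ± SD of 4 libraries, Flcn KO left of WT, on an axis that does not start at 0. At Dusp1, 3 Flcn KO libraries lie below every WT library and 1 above them; at Dusp4, 3 lie above and 1 below; the groups overlap at every gene.

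The 10 peaks with too few counts to be tested had group means of at most 4.47 CPM. They belong to Dusp4 (2), Dusp5 (3), Dusp10 (1) and Dusp16 (4). With no filter on counts they were fitted as well, and none passed (lowest adjusted p = 0.156, at chr8:34764682-34764985 near Dusp4, with 10, 19, 16 and 18 counts in Flcn KO and 8, 4, 6 and 10 in WT). The distance limit placed chr19:53479633-53480036, 49.1 kb from Dusp5, just inside, and a peak 50.4 kb from Dusp4, chr8:34756963-34757247, just outside.

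The kinases, Ras regulators, other phosphatases and target factors of the same pathways, 101 genes in 7 lists, had 455 tested peaks at 90 genes. In Flcn KO 5 rose and 4 fell (1.98%, beside 2.37% of all tested peaks), and the median log2 fold change was -0.02. Inside Map3k1, which encodes a kinase upstream of JNK and ERK, a peak fell to 1.78 ± 0.320 CPM in Flcn KO, against 10.6 ± 5.20 CPM in WT (SD, n = 4 each), -2.55 (SE 0.38, adjusted p = 3.61e-05) by edgeR. The other 2 called peaks among 98 of upstream kinases were at Map3k5, which encodes the stress kinase ASK1, with -2.50 (SE 0.61, adjusted p = 0.0203) by edgeR, and near Araf, a RAF kinase gene, with 11.1 ± 1.88 CPM in Flcn KO and 5.53 ± 1.31 CPM in WT (SD, n = 4 each) and an adjusted p of 0.0435. The Map3k5 peak held few counts: 2, 8, 0 and 6 in Flcn KO replicates 1 to 4, against 16, 57, 12 and 24 in WT. Rasa3, a Ras GTPase-activating protein gene, had both of the called peaks among 95 of Ras regulators, 0.82 (SE 0.22, adjusted p = 0.0313) and 0.58 (SE 0.16, adjusted p = 0.0361) by edgeR. Of 153 peaks of MAP kinase-responsive transcription factors, 1 rose at Elk3, 1.79 (SE 0.31, adjusted p = 0.000452) by edgeR, and 2 fell, at Mef2c, -0.87 (SE 0.20, adjusted p = 0.0118), and Myc, -0.79 (SE 0.22, adjusted p = 0.0452).

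Of the calls named, those at Map3k1 and Elk3 held under every alternative tried. Those at Map3k5, Araf, Rasa3, Mef2c and Myc all ended without WT replicate 2, which left 1 higher and 1 lower peak in the lists. Each of them ended under other alternatives too. Counting all, the Araf call ended in 9 of 18, the Myc call in 8 of 18 and the Rasa3 calls in 5 and 7 of 18. The Map3k5 call ended in 4 of 16 and the Mef2c call in 2 of 18. Without Flcn KO replicate 1 the lists held 3 higher and 8 lower peaks. Over all alternatives the highest adjusted p of a named call was 0.239, at Myc. The other dual-specificity phosphatases (22 peaks), the Sprouty and SPRED inhibitors of ERK signalling (33) and the MAP kinase phosphatases of other classes (30) had 0 called peaks by edgeR, beside 0, 5 and 7 at an unadjusted p below 0.05 (12.9% of all tested peaks). The Sprouty and SPRED peaks among these were 3 higher and 2 lower, and those of the other-class phosphatases 0 higher and 7 lower, with a median log2 fold change of -0.14 over their tested peaks. DESeq2 called 0, 0 and 0 and limma-voom called 0, 0 and 0 in these lists.

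The library-by-library profile of the changed Dusp4 peak was set beside all tested peaks assigned to a gene other than Dusp4. The measure was the Pearson correlation of log2(CPM + 0.5) over the 8 libraries. The 5 most alike (r between 0.979 and 0.985) lay near Rttn (17.1 and 18.6 kb away) and inside Trip12, Pik3ip1 and Zp3r. The Pik3ip1 peak, at the gene of a negative regulator of phosphoinositide signalling, had 15.7 ± 2.16 CPM in Flcn KO and 6.05 ± 0.827 CPM in WT (SD, n = 4 each). The correlation is across libraries of both groups and so carries the difference between them.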

How the data were processed

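The deposited values are raw, unnormalized counts in 57199 peaks (mm10) for each library, as the authors made them. Coordinates are printed 1-based. Per the submitters' processing notes, MACS2 2.1.1, bedtools 2.25.0, BWA 0.7.16, Picard 2.9.4, SAMtools 1.9 and Trimmomatic 0.36 were used; the sources used here do not give their roles, duplicate removal, any transposase shift or pooling for peak calling. Between 88.7% and 92.7% of values per library were even, so counts are not independent fragments, and errors come from the spread between libraries.

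Peaks passing edgeR's filterByExpr (minimum count 10) were TMM-scaled, and genotype was the only term of a robust quasi-likelihood fit and test (edgeR 4.0.16, R 4.3.3), with Benjamini-Hochberg adjustment over all 47859 tested peaks; fold changes are Flcn KO minus WT. The SE is the size of the log2 fold change over the square root of the F statistic of that test. Intervals are the change ± 1.96 SE and run slightly narrow for 8 libraries. The script was tested on simulated data. Alternatives used DESeq2 1.42.0 and limma 3.58.1, other scalings and filters, halved counts, a replicate block and each library left out. Genes and promoters came from RefSeq (GRCm38.p6), with no genome sequence or exons. A called peak that the pathway counts include is not reported here by name. The members, lists and tests were chosen with earlier results of these data known, and the motifs after the promoter sequences were seen. Named peaks are, per gene, the peak nearest the start (or nearest end) and the strongest, every called peak, the 3 largest changes in each direction and the 3 nearest the threshold. Other peaks of a gene (the 2 other Dusp4 peaks inside or upstream, the Dusp1 peak with the lowest p, the Dusp7 peak whose groups do not overlap) were chosen after their values were seen.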

Additional observations from a re-analysis of the deposited data

Results flagged for a closer look

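In 4 of 68 groups of 4 libraries, 1 library stood far from the other 3 by the gap to its nearest neighbour relative to the range; chance flags about 1 in 20. The sum over Dusp1 peaks was 165 CPM in Flcn KO replicate 2, against 120.4 to 127 CPM in the other Flcn KO libraries. The start peak of Dusp5 had 84.3 CPM in WT replicate 1, against 66.7 to 69.6 CPM in the other WT libraries. The called Mef2c peak had 33.0 CPM in WT replicate 2, against 21.6 to 22.9 CPM in the other WT libraries. The Flcn peak starting at 59809585 had 2.98 CPM in Flcn KO replicate 3, against 6.86 to 7.48 CPM in the other Flcn KO libraries.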

How the results depend on the processing

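Of 626 recomputed values for 38 results, 557 kept their direction and side of the threshold, or moved by less than the spread; where a call changed, the cause was not tested. With 1 library left out, the count of called phosphatase peaks ranged between 0 and 1 higher and between 0 and 1 lower, and the log2 fold change of the called Dusp4 peak between 0.91 and 1.15. Over the pathway lists the calls ranged between 1 and 3 higher (5 with all libraries) and between 1 and 8 lower (4 with all libraries), and limma-voom called 2 higher and 2 lower. Calls over all peaks, 1133, came to 665 without WT replicate 2 and 1797 without Flcn KO replicate 1. Among the peaks named, the direction turned at 2 Dusp6 peaks with changes near 0: the distal one had 0.00329 with the stricter filter, 0.00248 with halved counts and -0.102 to 0.0517 with a library left out, and the start peak -0.114 to 0.0504; with a library left out the log2 ratio of summed CPM also crossed 0 at Dusp2 (-0.00548 to 0.117), Dusp6 (-0.0423 to 0.0251), Dusp7 (-0.0327 to 0.121) and Dusp16 (-0.0381 to 0.0436), by less than the spread. Same-numbered libraries did not deviate together (r between -0.05 and 0.08). That gave no sign of pairing by number, but low correlations cannot exclude a shared batch. With the replicate block, edgeR called 1375 of all tested peaks, beside 1133 without it. The phosphatase genes then had 1 higher and 0 lower peaks, and the Dusp4 change was 1.04 (edgeR adjusted p = 0.00453). Weak peaks set the limit of depth: the SE of the tested phosphatase peaks ran between 0.08 and 0.50.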

Other observations

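Beyond 50 kb, 44 further peaks had one of these phosphatase genes as their nearest. Beside 1.35% higher and 1.02% lower of all tested peaks, 1 of 38 tested here rose and 0 fell. It lies 218 kb from Dusp6, at chr10:99485219-99485944, and had 13.3, 16.6, 14.4 and 17.5 CPM in Flcn KO replicates 1 to 4, against 4.57, 4.91, 6.12 and 10.1 CPM in WT replicates 1 to 4; every Flcn KO library was above every WT library (log2 fold change of 1.26 ± 0.26 (SE), adjusted p = 0.00382 by edgeR). Of the 33 peaks within 50 kb of a phosphatase gene that lie nearer to another gene, 24 were tested. Among them 1 rose and 0 fell, beside the same 1.35% and 1.02% of all tested peaks. The peak that rose is a Crebl2 peak beside Dusp16, at chr6:134843473-134843989, with 7.13 ± 1.66 CPM in Flcn KO and 2.28 ± 1.17 CPM in WT (SD, n = 4 each) (log2 fold change of 1.64 ± 0.40 (SE), adjusted p = 0.0161 by edgeR). Both were chosen after their values were seen, and which gene either peak acts on was not tested.

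Inside Flcn, 2 peaks that the count filter removed held counts mainly in Flcn KO. At chr11:59798675-59798950 replicates 1 to 4 held 16, 4, 8 and 16 counts in Flcn KO and 0, 2, 0 and 0 in WT. At chr11:59799302-59799641 they held 2, 9, 18 and 21 in Flcn KO and 0, 0, 2 and 0 in WT. With no filter both passed the edgeR test (adjusted p = 0.00861 and 0.00548).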
